A study of Homo sapiens with 8 samples.

Results

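Dipyridamole and sorafenib were set against each other as single drugs in SK-Hep1. This human line came from a patient with liver cancer and is known for endothelial-like features. The comparison held 4 of the 8 libraries of the study: 2 given dipyridamole alone and 2 given sorafenib alone, with 1 library of each pair from mock control cells and 1 from cells with ectopic expression of SLC29A2. The other 4 libraries, from the same cell types with a control treatment or with both drugs, entered the model that set the error. All 8 conditions had 1 library each. The labels name neither the doses nor the exposure times of the drugs, so they are compared as given and not at matched doses, and they do not say whether the SLC29A2 line is 1 clone. The genes compared were the 13726 of 58302 with a mean of at least 1 FPKM (fragments per kilobase of transcript, scaled to the depth of the library) over the 4 single-drug libraries. A value below is either a level, in FPKM, or a log2 difference, which is dipyridamole minus sorafenib on the log2(FPKM + 1) scale, averaged over both cell types, with the standard error (SE) from limma.

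Sorafenib inhibits RAF kinases and several receptor tyrosine kinases, among them the receptors for vascular endothelial growth factor and platelet-derived growth factor and KIT. RAF stands at the head of a cascade that activates MEK and then ERK, and ERK turns on immediate-early transcription factors together with phosphatases and Sprouty proteins that feed back on it. Dipyridamole blocks the equilibrative nucleoside transporters, which carry nucleosides for salvage and adenosine across the membrane, and it inhibits several phosphodiesterases, the enzymes that break down cyclic AMP and cyclic GMP. SLC29A2 encodes 1 of those transporters. The 2 drugs are not structural relatives.

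The recovered totals ran from 14.1 to 16.7 M reads, and 1 read in a gene of 2 kb stood for 0.0300 to 0.0355 FPKM. SLC29A2 was at 7.11 to 7.81 FPKM in the 4 mock libraries and at 1477 to 3040 FPKM in the 4 libraries of SLC29A2 cells, as labelled. The mock library given dipyridamole stood apart in composition, with 5.74% of reads from mitochondrial transcripts and 2.48% from non-coding genes. The other 3 single-drug libraries had 3.04% to 4.05% mitochondrial and 1.67% to 1.93% non-coding reads. Of 17 hepatocyte markers, 3 had a mean of at least 1 FPKM, and of 17 endothelial markers 7, which included ENG at 40 to 76 FPKM. Of the hepatocyte markers, ALB and TTR stayed at or under 0.111 FPKM, and of the endothelial markers PECAM1, CDH5 and KDR stayed at or under 0.259 FPKM, in all 8 libraries. The mesenchymal marker VIM was at 514 to 805 FPKM. The summed endothelial markers were at 100.7 to 117.5 FPKM with dipyridamole and 109.2 to 116.7 FPKM with sorafenib.

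The first question was which genes set the single drugs apart in both cell types. Of the 13726 genes, 1233 passed at a limma adjusted p of 0.05 (8.98%): 461 were higher with dipyridamole (3.36%) and 772 were higher with sorafenib (5.62%). Higher with sorafenib were 31 of 31 mitosis genes and 32 of 40 DNA replication genes, and a smaller part of the interferon (9 of 27), nucleotide synthesis (7 of 27) and p53 (8 of 31) lists. Higher with dipyridamole were 14 of 29 ERK outputs, 6 of 21 inflammatory genes and 9 of 29 genes of autophagy and lysosomes. At least 2-fold apart were 192 of the 461 and 329 of the 772 genes, and the median log2 difference of all genes tested was -0.02. Both dipyridamole libraries lay above both sorafenib libraries for 24.6% of the genes tested, and both sorafenib libraries above both dipyridamole libraries for 29.9%. Among genes that passed, this held for all 461 and for 771 of the 772, so it adds no separate support to a call. In this bulk RNA, fewer cells of a type and less RNA per cell cannot be told apart. With 1 library per condition, the p-values rest on how far mock and SLC29A2 cells differ in their response to the treatments. They measure no spread between replicate libraries, and no separate cultures are stated for the 8 libraries.

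Each single-drug library weighed on these counts. Where one is left out, the lone library of that drug is assumed to vary like the others. Without the mock library given dipyridamole, 118 genes were higher with dipyridamole and 264 with sorafenib. Without the mock sorafenib library the counts were 81 and 206, without the SLC29A2 sorafenib library 116 and 218, and without the SLC29A2 dipyridamole library 33 and 98. Genes that passed in all 8 fits with 1 library left out numbered 23 on the dipyridamole side and 92 on the sorafenib side. Across genes, the log2 difference in mock cells had a Pearson r of 0.508 and a Spearman coefficient of 0.416 with that in SLC29A2 cells (13726 genes, which are not independent replicates; no library is shared). Genes 2-fold apart in both cell types in the same direction numbered 139 with dipyridamole higher and 238 with sorafenib higher, and 22 were 2-fold apart in opposite directions.

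**Figure D1:**
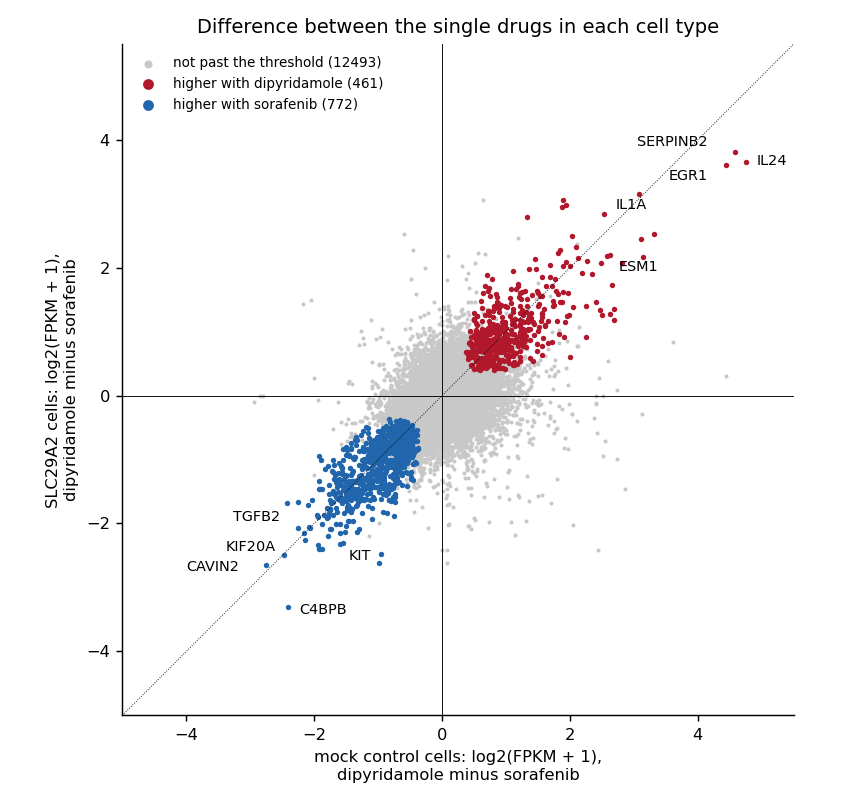
Each point is 1 of the 13726 genes, placed by its difference in log2(FPKM + 1) between dipyridamole and sorafenib in mock control cells (horizontal) and in SLC29A2 cells (vertical), with the dotted line at equal differences. Red points (461) and blue points (772) passed the limma test; IL24, SERPINB2 and EGR1 lie above 3.6 in both cell types and C4BPB and CAVIN2 below -2.4 in both.

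Part of the ERK pathway's output was higher with dipyridamole than with sorafenib. Of 29 measured genes on this list, 14 passed as higher with dipyridamole and 0 as higher with sorafenib, with a median log2 difference of 0.62 against -0.02 for all genes. The immediate-early transcription factor gene EGR1 (GRCh38 chr5:138465490-138469315) was at 31.9 FPKM in mock cells and 38.4 FPKM in SLC29A2 cells with dipyridamole, and at 0.511 and 2.24 FPKM with sorafenib. Both dipyridamole libraries thus held far more EGR1 than both sorafenib libraries, and the lowest of them rested on 25 reads. Its log2 difference was 4.02 ± 0.27 (SE; limma adjusted p = 0.00188). With the control treatment EGR1 was at 12.2 and 15.1 FPKM, between the single drugs in each cell type.

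Several feedback inhibitors of the same cascade were also higher with dipyridamole. The SPRED genes, which restrain RAS signalling, were split. SPRED3 passed as higher with dipyridamole (1.10, limma adjusted p = 0.00486), while SPRED1 (0.02 ± 0.13) and SPRED2 (0.18 ± 0.16) did not pass. DUSP6, a cytoplasmic ERK phosphatase, was at 18.2 and 16.1 FPKM with dipyridamole (mock and SLC29A2 cells) and at 4.21 and 5.17 FPKM with sorafenib, a log2 difference of 1.67 ± 0.16 (limma adjusted p = 0.00258). DUSP5, a nuclear ERK phosphatase, was at 38.5 and 51.4 against 13.4 and 10.9 FPKM, a log2 difference of 1.80 ± 0.18 (limma adjusted p = 0.0027). The receptor feedback gene SPRY2 was at 21.5 and 25.0 against 6.62 and 6.16 FPKM (1.71 ± 0.21). For DUSP6, DUSP5 and SPRY2 the lower dipyridamole library lay above the higher sorafenib library, as it did for all 461 genes called on that side. The epidermal growth factor receptor ligand gene EREG was at 12.7 and 11.5 against 2.98 and 3.02 FPKM (1.71 ± 0.16), and IER3, an early-response survival gene, was at 251 and 206 against 62.2 and 49.6 FPKM (2.01 ± 0.27). The remaining calls ran from 0.92 to 1.57 in log2 difference. The cyclin gene CCND1, at a log2 difference of -0.01, and the ETS factor genes ETV1 (-0.52) and ETV5 (-0.03) did not pass either. These 3, and SPRED1, SPRED2 and SPRED3, were chosen after their values were seen. The list held 8 calls without the mock dipyridamole library, 7 without the mock sorafenib library and 5 without the SLC29A2 dipyridamole library.

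The EGR1 promoter is shown because it carries the serum response sites known from the textbook route from ERK to this gene. Sequences are from RefSeq (GRCh38.p14), 5′ to 3′ on the gene's strand, from 250 bases before to 20 bases after the annotated start, which is counted as 0; EGR1 is at chr5:138465229-138465499, plus strand. Capitals mark CArG boxes, the sites of serum response factor, found on both strands.
EGR1: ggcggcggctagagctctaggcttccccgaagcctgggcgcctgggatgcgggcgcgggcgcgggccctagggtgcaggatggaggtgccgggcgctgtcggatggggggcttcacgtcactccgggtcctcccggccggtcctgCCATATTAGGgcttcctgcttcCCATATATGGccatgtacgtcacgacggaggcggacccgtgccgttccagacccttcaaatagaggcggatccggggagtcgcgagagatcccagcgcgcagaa
The capitals hold 2 CArG boxes, at -105 to -96 and -83 to -74. The motif was present in 0.635% of 315 promoters of genes higher with dipyridamole, in 1.90% of 630 promoters of genes higher with sorafenib and in 0.980% of the 9901 promoters of tested genes, so the box is no shared mark of the dipyridamole side. A match describes letters only, not a site in use.

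Cytokine and chemokine genes held the other large differences on the dipyridamole side. IL24 (chr1:206897443-206904139), which encodes a cytokine of the IL-10 family, was at 323 and 254 FPKM with dipyridamole and at 11 and 19.2 FPKM with sorafenib, and at 40.3 and 65.5 FPKM with the control treatment. The dipyridamole libraries were the highest of the 8 and the mock sorafenib library the lowest. Its log2 difference was 4.21 ± 0.45 (limma adjusted p = 0.0036; 0.0505 without the mock dipyridamole library and 0.0570 without the SLC29A2 dipyridamole library). IL1A, an epithelial alarm cytokine of the interleukin-1 family, was at 37.9 and 53 against 5.70 and 6.53 FPKM, a log2 difference of 2.69 ± 0.21 (limma adjusted p = 0.00222). IL1A passed in every fit with 1 library left out. The neutrophil chemokine gene CXCL8 was at 46.9 and 32.1 against 4.42 and 6.41 FPKM (2.65 ± 0.30; limma adjusted p = 0.00411, and 0.0515 without the mock dipyridamole library). CXCL2, of the same chemokine group, was at 71.3 and 73.6 against 7.40 and 12.6 FPKM (2.78 ± 0.49; limma adjusted p = 0.0181). CXCL2 lost its call without either dipyridamole library (0.0973 for mock, 0.160 for SLC29A2 cells) and without the mock sorafenib library (0.0805).

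Of 21 measured genes on the NF-kB and inflammatory list, 6 passed as higher with dipyridamole and 0 as higher with sorafenib, with a median of 0.29. The 6 were IL24, CXCL2, IL1A, CXCL8, CXCL3 (1.67 ± 0.34) and IL1B (1.23 ± 0.21), all of them secreted factors. The NF-kB subunits and their feedback inhibitors did not pass: log2 differences were -0.37 for NFKB1, 0.29 for RELA and -0.43 for NFKBIA, 3 genes chosen after their values were seen. CXCL1 (1.17 ± 0.39) and IL6 (0.92 ± 0.38) did not pass either. The list held 1 call without the mock dipyridamole library and 2 without the SLC29A2 dipyridamole library.

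The CXCL8 promoter (chr4:73740319-73740589, plus strand) is shown with its AP-1 site in capitals. FOS and JUN family dimers bind this site, and several of these factors are ERK outputs. No NF-kB motif was searched in any promoter, so a site of that kind would be left unmarked. Which factors act on CXCL8 was not tested.
CXCL8: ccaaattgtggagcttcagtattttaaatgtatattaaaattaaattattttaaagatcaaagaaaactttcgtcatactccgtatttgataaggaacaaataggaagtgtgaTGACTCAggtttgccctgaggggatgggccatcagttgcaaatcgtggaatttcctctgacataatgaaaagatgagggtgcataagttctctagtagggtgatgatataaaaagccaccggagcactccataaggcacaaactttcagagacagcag
The AP-1 motif, TGAGTCA on either strand, is here read as TGACTCA at -137 to -131. It was present in 5.40% of promoters on the dipyridamole side, in 2.54% on the sorafenib side and in 3.03% of all tested promoters. FOS itself was at 5.75 and 7.65 FPKM with dipyridamole against 1.02 and 2.28 FPKM with sorafenib (1.57 ± 0.25; limma adjusted p = 0.0134), close to its control levels of 7.06 and 7.34 FPKM.

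SERPINB2 and ESM1 set the drugs apart among secreted vascular and protease-control genes. SERPINB2 (chr18:63871692-63903890), which encodes plasminogen activator inhibitor 2, was at 161 and 190 FPKM with dipyridamole and at 5.76 and 12.5 FPKM with sorafenib. With the control treatment it was at 40.2 and 68.9 FPKM, and with both drugs at 5.89 and 7.55 FPKM. The single drugs thus stood on opposite sides of the control, and the combination sat with sorafenib. The log2 difference was 4.20 ± 0.20 (limma adjusted p = 0.000588). PLAT, which encodes tissue plasminogen activator, was at 764 and 725 against 510 and 440 FPKM (0.65 ± 0.14; limma adjusted p = 0.0308), below its control levels of 1492 and 1288 FPKM with either drug. S100A10, a cell-surface plasminogen co-receptor gene, was lower with dipyridamole (-0.72 ± 0.15). In all, 2 of 14 genes of plasminogen activation and coagulation passed as higher with dipyridamole and 1 as higher with sorafenib. PLAT and S100A10 each lost the call in 6 of the 8 fits with 1 library left out.

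Of 17 measured angiogenic ligands and vascular factors, 5 passed as higher with dipyridamole and 1 as higher with sorafenib (median 0.11). ESM1, an endothelial proteoglycan gene induced by vascular endothelial growth factor, was at 53.4 and 55.8 against 8.07 and 11.5 FPKM (2.38 ± 0.22; limma adjusted p = 0.00255). ANGPTL4, a lipoprotein lipase inhibitor gene, was at 74.2 and 68.5 against 15.5 and 17.3 FPKM (2.06 ± 0.13; limma adjusted p = 0.00173), and at 79.2 and 77.6 FPKM with the control treatment. ANGPTL4 in the dipyridamole libraries therefore lay near the control, and in the sorafenib libraries far below it. STC1 (1.24 ± 0.25), a stanniocalcin gene, and VEGFA (0.68 ± 0.16) also passed, as did CXCL8, which this list shares. VEGFA was at 139 and 132 FPKM with dipyridamole, 81.9 and 86.3 with sorafenib and 69.1 and 66.1 with the control treatment. The vasoconstrictor gene EDN1 was lower with dipyridamole, at 10.1 and 4.95 against 18.2 and 17.6 FPKM (-1.22 ± 0.24). The 5 calls became 2 without the mock dipyridamole library and 3 without the mock sorafenib or the SLC29A2 dipyridamole library.

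Further genes among the 15 largest on the dipyridamole side encode a growth factor, a hormone receptor and non-coding transcripts. BMP6, a bone morphogenetic protein gene, was at 5.09 and 11.4 against 0.645 and 0.497 FPKM (2.47 ± 0.31; limma adjusted p = 0.00523, and 0.0527 without the SLC29A2 dipyridamole library). GIPR, which encodes the receptor of an incretin hormone, was at 23.1 and 31.2 against 4.86 and 4.69 FPKM (2.27 ± 0.28; limma adjusted p = 0.00554, and 0.0746 without that same library). Both genes were low with the control treatment (0.323 and 0.351 FPKM for BMP6, 2.65 and 2.77 FPKM for GIPR) and with sorafenib. C11orf91 was at 17.2 and 32.8 against 3.95 and 3.38 FPKM (2.41 ± 0.29; limma adjusted p = 0.00494, and 0.0554 without that library).

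The non-coding genes in this group were low without dipyridamole. The ribosomal protein pseudogene RPLP0P2 was at 25.4 and 32.7 against 2.14 and 2.79 FPKM (3.11 ± 0.15; limma adjusted p = 0.000588), although reads of its parent gene RPLP0 may be split with it. LINC02154 was at 54.2 and 53.6 against 12 and 9.91 FPKM (2.20 ± 0.14; limma adjusted p = 0.00173). A LINC-PINT gene model (ENSG00000226380, 1 of 2 models under that symbol) was at 122 and 66.9 against 11.3 and 10.8 FPKM (2.92 ± 0.51; limma adjusted p = 0.0181). The dipyridamole libraries were above the sorafenib libraries for all 3, as for all 461 genes called on that side. The antisense gene PDE7B-AS1 had a log2 difference of 2.44 ± 0.45, with strand not stated, and MIR9-3 one of 2.45 ± 0.42 that rests on at most 10 reads in any single-drug library. LINC-PINT and PDE7B-AS1 lost their calls without either dipyridamole library and without the mock sorafenib library (adjusted p from 0.0892 to 0.151), and MIR9-3 without either dipyridamole library or the SLC29A2 sorafenib library (0.0825 to 0.153). The mock dipyridamole library also had the highest non-coding share of the single-drug libraries; its part in these results was not tested.

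**Figure D2:**
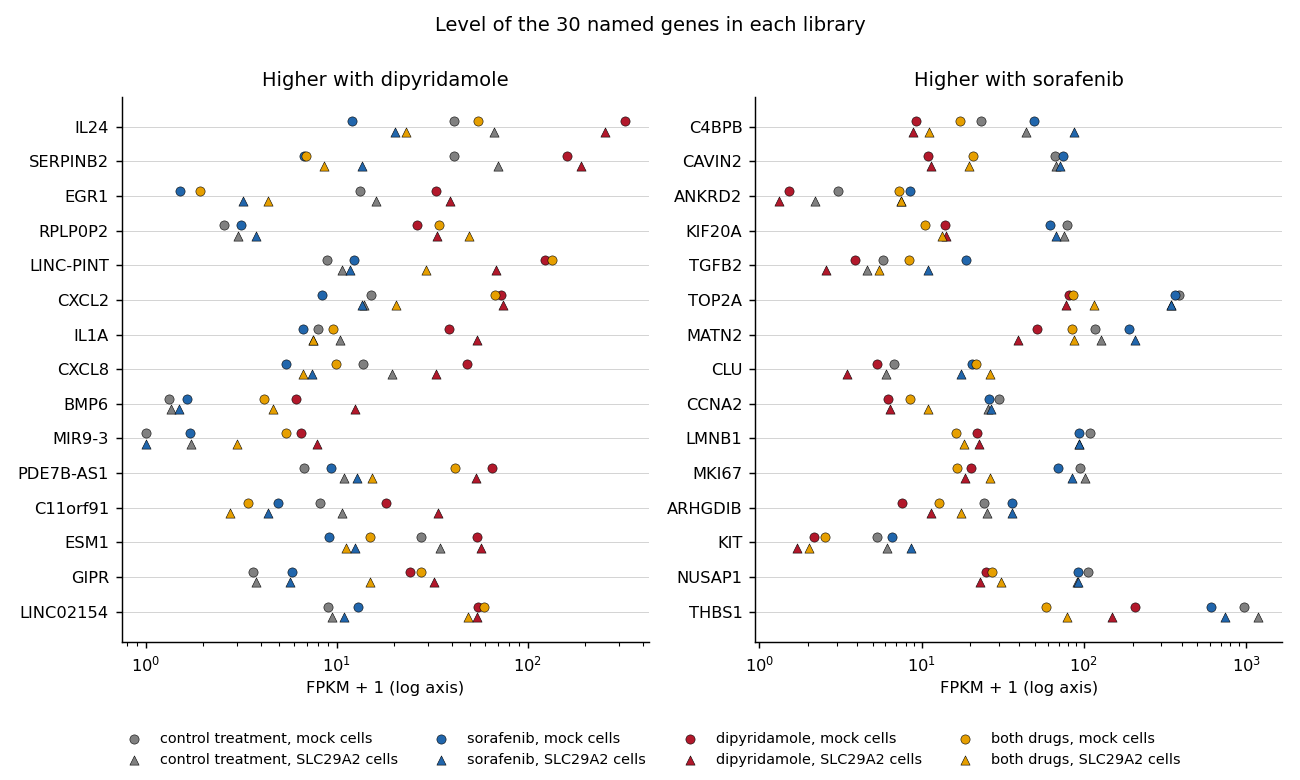
Levels (FPKM + 1, log axis) of the 15 genes with the largest log2 differences in each direction, with 1 point per library; circles are mock control cells, triangles SLC29A2 cells, and colours the 4 treatments. In the left panel both red points lie to the right of both blue points for every gene, and in the right panel both lie to the left.

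Stress-response genes were split, with some members higher under dipyridamole and most not past the threshold. ATF4 is the transcription factor of the integrated stress response, which is triggered by amino acid shortage and unfolded proteins. Of its 40 measured targets, 5 passed as higher with dipyridamole and 1 as higher with sorafenib, with a median of 0.03. GDF15, a stress cytokine gene, was at 2236 and 1985 FPKM with dipyridamole against 441 and 528 FPKM with sorafenib (2.12 ± 0.26; limma adjusted p = 0.00477). PPP1R15A, which restores translation by dephosphorylating eIF2-alpha, was at 342 and 274 against 97.5 and 121 FPKM (1.48 ± 0.18; limma adjusted p = 0.00459). Of these, PPP1R15A passed in every fit with 1 library left out and GDF15 lost its call in 2 of 8. DDIT3, the CHOP factor gene, was at 35.3 and 36.4 against 16.2 and 12.7 FPKM (1.26 ± 0.22), and CEBPB (1.20 ± 0.19) and DDIT4 (1.20 ± 0.28) passed as well. The serine synthesis gene PSPH was higher with sorafenib (-0.87 ± 0.14). The list held 2 calls for dipyridamole without the mock dipyridamole or the SLC29A2 sorafenib library and 1 without the SLC29A2 dipyridamole library. Against the control treatment, which both values share, the list's median was 0.75 with sorafenib and 0.74 with dipyridamole in mock cells, and 0.65 and 0.87 in SLC29A2 cells.

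All called iron genes were also on the NRF2 list. NRF2 drives antioxidant and iron-storage genes, and of its 22 measured targets 5 passed as higher with dipyridamole and 0 as higher with sorafenib (median 0.06). HMOX1, the haem oxygenase gene, was at 83.7 and 143 against 23.8 and 39.9 FPKM (1.80 ± 0.26; limma adjusted p = 0.00875). The ferritin light chain gene FTL was at 3576 and 4655 against 1297 and 1179 FPKM (1.72 ± 0.22), and the heavy chain gene FTH1 at 168 and 178 against 112 and 90.3 FPKM (0.78 ± 0.15). The oxidative-stress gene OSGIN1 was at 71.7 and 80.7 against 18.6 and 25.6 FPKM (1.75 ± 0.13; limma adjusted p = 0.00219), and TXNRD1, for thioredoxin reductase, had a difference of 0.67 ± 0.14. The 3 calls among 20 genes of iron handling and ferroptosis were HMOX1, FTL and FTH1, with a median of 0.00 over that list; they became 1 without either SLC29A2 single-drug library, 2 without the mock dipyridamole library and 0 without the mock sorafenib library. NRF2 calls numbered 3 without the mock dipyridamole library, 2 without either SLC29A2 single-drug library and 1 without the mock sorafenib library. OSGIN1 alone of the 5 passed in every fit with 1 library left out.

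Autophagy and lysosome genes leaned to dipyridamole. Of 29 measured genes, 9 passed as higher with dipyridamole and 0 as higher with sorafenib, and the median log2 difference was 0.35. NPC1, which exports cholesterol from the lysosome, was at 190 and 152 against 47.7 and 49.1 FPKM (1.79 ± 0.14; limma adjusted p = 0.00222), with 69 and 73.9 FPKM in the control libraries. The autophagy receptor gene SQSTM1 was at 463 and 477 against 196 and 231 FPKM (1.14 ± 0.13; limma adjusted p = 0.00396). In each case both dipyridamole libraries were above both control libraries. They were also above both sorafenib libraries, as for all 461 genes called on that side. CTSL, a lysosomal protease gene, had a difference of 1.09 ± 0.25, NEU1, a sialidase gene, one of 0.91 ± 0.13, and FLCN, a nutrient-signalling gene, one of 0.87 ± 0.18. The list held 4 calls without the mock dipyridamole or the SLC29A2 sorafenib library, 2 without the SLC29A2 dipyridamole library and 1 without the mock sorafenib library.

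Chaperone genes held calls on both sides. Of all genes tested, 3.36% passed as higher with dipyridamole and 5.62% as higher with sorafenib. Of 24 genes of endoplasmic reticulum chaperones and the unfolded protein response, ERN1 (1.14 ± 0.22), the IRE1 sensor gene, HERPUD1 (0.84 ± 0.17) and HSPA5 (0.63 ± 0.15), the BiP gene, passed as higher with dipyridamole and PDIA4 (-0.71 ± 0.16) as higher with sorafenib. The 3 calls for dipyridamole became 2 without any one control or combination library and 0 without any one single-drug library. Of 18 heat shock genes, 2 passed, both higher with sorafenib. These were the extracellular chaperone gene CLU, at 4.32 and 2.48 against 19.3 and 16.5 FPKM (-2.13 ± 0.22; limma adjusted p = 0.00292), and HSPA4L (-0.91 ± 0.17), which lost its call without any one single-drug library. The inducible HSP70 gene HSPA6 was at 3.48 and 7.24 against 0.622 and 1.89 FPKM (1.49 ± 0.39) and did not pass.

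Genes of cell division were higher with sorafenib throughout their list. All 31 genes of the mitosis list were measured and all 31 passed as higher with sorafenib, with a median log2 difference of -1.49 against -0.02 for all genes. KIF20A, a kinesin of cytokinesis, was at 13.0 and 13.1 FPKM with dipyridamole and at 60.6 and 66.1 FPKM with sorafenib (-2.20 ± 0.14; limma adjusted p = 0.00173). TOP2A, which untangles chromosomes, was at 80.2 and 76.6 against 363 and 344 FPKM (-2.16 ± 0.17; limma adjusted p = 0.00219). The control libraries held 384 and 345 FPKM of TOP2A, so the sorafenib libraries lay near the control and the dipyridamole libraries far below it. The cyclin gene CCNA2 was at 5.18 and 5.41 against 24.9 and 26 FPKM (-2.07 ± 0.17), and the proliferation marker MKI67 at 19.1 and 17.4 against 68.4 and 83.3 FPKM (-1.99 ± 0.19). ANLN, an actin-binding protein of the cleavage furrow, had a difference of -1.93 ± 0.13, and NUSAP1, a spindle microtubule gene, one of -1.95 ± 0.14. LMNB1, a lamin gene, was at 21.0 and 21.6 against 92.4 and 92.6 FPKM (-2.07 ± 0.13, limma adjusted p = 0.00173). The mitosis list held 24 calls without the mock dipyridamole library and 16 without the SLC29A2 dipyridamole library.

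DNA replication genes were mostly on the same side. Of 40 measured, 32 passed as higher with sorafenib and 0 as higher with dipyridamole, with a median of -0.99. RRM2, the regulated subunit of ribonucleotide reductase, was at 22.9 and 20 FPKM with dipyridamole, at 59.4 and 63.2 FPKM with sorafenib and at 140 and 136 FPKM with the control treatment. For RRM2 both drugs thus lay below the control, dipyridamole the further, with a log2 difference of -1.48 ± 0.13 between them (limma adjusted p = 0.00239). The sliding clamp gene PCNA was at 35.1 and 33.8 against 96.2 and 90.4 FPKM (-1.41 ± 0.13; limma adjusted p = 0.00255), and the helicase subunit gene MCM4 at 44.0 and 34.5 against 99.5 and 117 FPKM (-1.45 ± 0.18). TYMS, for thymidylate synthase (-1.41 ± 0.15), and the replisome gene GINS1 (-1.29 ± 0.13) passed as well. The number of calls fell to 15 without the mock dipyridamole library, 10 without the mock sorafenib library, 11 without the SLC29A2 sorafenib library and 2 without the SLC29A2 dipyridamole library.

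Promoters of both groups are shown because many cell-cycle genes share sequence elements there. The cell cycle homology region, TTTGAA, is known as a site of the DREAM complex, which silences cell-cycle genes in resting cells, and CCAAT boxes bind NF-Y. In CCNB2 (chr15:59104896-59105166, plus strand) and PLK1 (chr16:23678639-23678909, plus strand) capitals mark both, and in MCM3 (chr6:52284722-52284992, minus strand) they mark a site of E2F, the activator of replication genes. These 3 genes were chosen after their values were seen.
CCNB2: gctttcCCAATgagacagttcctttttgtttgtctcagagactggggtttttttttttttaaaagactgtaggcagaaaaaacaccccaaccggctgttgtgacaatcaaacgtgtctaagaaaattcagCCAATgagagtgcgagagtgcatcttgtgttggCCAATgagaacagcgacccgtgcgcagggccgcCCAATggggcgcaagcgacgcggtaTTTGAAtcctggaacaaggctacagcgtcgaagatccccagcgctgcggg
PLK1: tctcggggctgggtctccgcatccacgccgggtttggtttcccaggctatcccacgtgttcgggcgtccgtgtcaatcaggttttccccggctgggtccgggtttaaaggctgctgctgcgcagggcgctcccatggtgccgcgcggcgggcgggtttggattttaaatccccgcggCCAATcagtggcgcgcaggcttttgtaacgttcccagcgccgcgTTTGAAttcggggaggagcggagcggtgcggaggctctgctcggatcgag
MCM3: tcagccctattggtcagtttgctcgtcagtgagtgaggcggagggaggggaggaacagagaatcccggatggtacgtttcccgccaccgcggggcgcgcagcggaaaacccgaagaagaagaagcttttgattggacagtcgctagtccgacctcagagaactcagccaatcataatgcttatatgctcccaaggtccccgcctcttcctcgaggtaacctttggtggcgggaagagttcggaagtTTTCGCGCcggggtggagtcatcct
CCNB2, a B-type cyclin gene, held 1 TTTGAA and 4 CCAAT boxes and was at 11.4 and 13.8 FPKM with dipyridamole against 46.1 and 39.7 FPKM with sorafenib (-1.69 ± 0.18). PLK1, a mitotic kinase gene, held 1 of each and was at 24.8 and 30.5 against 76.3 and 78.5 FPKM (-1.46 ± 0.20). In both promoters the TTTGAA lies at -29 to -24. MCM3, a subunit gene of the replicative helicase, held TTTCGCGC from -4 to 3 and was at 31.5 and 25.4 against 58.2 and 72.7 FPKM (-1.18 ± 0.16).

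The same elements were counted in all windows from 250 bases before to 50 after the start, on both strands, for the 9901 tested genes that have one. TTTGAA was present in 22.1% of the 630 promoters on the sorafenib side, in 10.2% of the 315 on the dipyridamole side and in 9.20% of all tested; of 25 mitosis promoters 16 held it (64.0%). CCAAT was present in 48.7%, 32.4% and 36.5% of these sets and in 72.0% of the mitosis promoters. Of 35 DNA replication promoters 1 held TTTGAA (2.86%). The E2F site TTTGGCGC was present in 20% of replication promoters, in 3.17% on the sorafenib side, in 0 of 315 on the dipyridamole side and in 1.09% of all tested, and TTTCGCGC in 14.3%, 2.70%, 0% and 1.04%. The lysosomal E-box TCACGTGA was present in 3.49% of promoters on the dipyridamole side, 0.952% on the sorafenib side and 2.0% of all tested. Motifs of CREB, ATF4, SREBP, the heat shock factor HSF1, NRF2 and EGR factors were searched too. The NRF2 core TGACNNNGC was present in 20.3% of promoters on the dipyridamole side, 11.1% on the sorafenib side and 15.4% of all tested. For the CREB palindrome TGACGTCA the shares were 2.86%, 3.02% and 3.38%, and 16% of mitosis promoters held it. All these elements were searched with the results known, and the shares carry no test.

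Nucleotide synthesis and G1 control stood closer together. Of 27 genes of de novo purine and pyrimidine synthesis, 7 passed as higher with sorafenib (median -0.37), among them RRM2, TYMS, RRM1 (-1.17 ± 0.14) and DTYMK (-1.0 ± 0.14), which serve deoxynucleotide supply. The 7 calls became 3 without the mock sorafenib library, 4 without the SLC29A2 sorafenib library and 1 without the SLC29A2 dipyridamole library. Of 16 G1 cyclins and inhibitors, 3 passed as higher with sorafenib (median -0.28). The largest was the CDK4 and CDK6 inhibitor gene CDKN2C, at 5.46 and 6.80 against 26.8 and 24.6 FPKM (-1.91 ± 0.17; limma adjusted p = 0.00255), followed by CDK2 (-0.75 ± 0.17) and CDKN1B (-0.63 ± 0.13). These calls became 2 without either control library and 1 without any one single-drug library. The p21 gene CDKN1A was at 273 and 311 against 275 and 203 FPKM, with the SLC29A2 dipyridamole library the highest of the 4 and overlap between the drugs.

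Outside the cell cycle, the genes furthest on the sorafenib side encode caveolar, matrix and signalling proteins. CAVIN2 (chr2:191834302-191847255), a coat protein of caveolae, was at 9.95 and 10.4 FPKM with dipyridamole, at 73.2 and 70.6 with sorafenib and at 65.8 and 66.6 with the control treatment (-2.71 ± 0.12; limma adjusted p = 0.000588). The cell types were close to each other for CAVIN2 under every treatment. C4BPB, a complement regulator gene, was at 8.28 and 7.80 against 48.1 and 85.8 FPKM (-2.85 ± 0.36; limma adjusted p = 0.00574), with 22.2 and 43.1 FPKM in the control libraries. Its adjusted p was 0.0527 without the mock dipyridamole library and 0.0905 without the SLC29A2 dipyridamole library. ANKRD2, a stress-responsive ankyrin repeat gene of muscle, was at 0.534 and 0.325 against 7.51 and 6.43 FPKM (-2.48 ± 0.20), and the matrix gene MATN2 at 50.4 and 38.3 against 188 and 207 FPKM (-2.14 ± 0.16). ARHGDIB, a signalling gene best known from blood cells, was at 6.57 and 10.4 against 35.2 and 34.9 FPKM (-1.96 ± 0.18). C4BPB, ANKRD2, MATN2 and ARHGDIB were all above the control with sorafenib and below it with dipyridamole in both cell types.

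TGF-beta signalling genes were among them. TGFB2, a TGF-beta ligand gene, was at 2.91 and 1.59 FPKM with dipyridamole, 17.7 and 9.90 with sorafenib and 4.80 and 3.64 with the control treatment (-2.16 ± 0.17; limma adjusted p = 0.00222). THBS1, whose product thrombospondin 1 activates latent TGF-beta and restrains angiogenesis, was at 206 and 148 against 602 and 735 FPKM (-1.93 ± 0.22; limma adjusted p = 0.00431). The control libraries held 973 and 1189 FPKM of THBS1, more than any library with a drug. With ID3 (-1.62 ± 0.22) these made 3 calls for sorafenib and 0 for dipyridamole among 19 TGF-beta and YAP targets (median -0.14). ID1 (-0.90 ± 0.29) and ANKRD1 (0.76 ± 0.23) did not pass.

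Matrix genes went both ways. Of 24 mesenchymal and matrix genes, 5 passed as higher with sorafenib: COL3A1 (-1.17 ± 0.28), the basement membrane collagen genes COL4A2 (-0.98 ± 0.15) and COL4A1 (-0.88 ± 0.17), and the protease inhibitor genes TIMP3 (-0.88 ± 0.22) and TIMP2 (-0.84 ± 0.12). The 3 higher with dipyridamole, chosen after their values were seen, were COL6A2 (0.68 ± 0.12), COL6A1 (0.58 ± 0.13) and TIMP1 (0.63 ± 0.15). COL6A2 was at 455 and 436 FPKM with dipyridamole against 282 and 274 with sorafenib, and COL4A2 at 196 and 162 against 356 and 351. Collagen IV and collagen VI pairs thus lay on opposite sides. The 5 calls became 3 without either control library, 2 without the mock dipyridamole library and 0 without any of the other 3 single-drug libraries. The 3 dipyridamole calls became 2 without either library with both drugs and 0 without any of the other 6 libraries.

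Interferon and p53 targets were higher with sorafenib in part. Of 27 interferon response genes, 9 passed as higher with sorafenib and 0 as higher with dipyridamole, with a median of -0.61. IFIT1, an antiviral RNA-binding protein gene, was at 3.20 and 2.85 FPKM with dipyridamole against 9.43 and 9.59 with sorafenib (-1.39 ± 0.18; limma adjusted p = 0.00563). UBA7, the activating enzyme gene of ISG15, was at 2.21 and 1.72 against 7.29 and 4.30 FPKM (-1.16 ± 0.19), and OAS3 (-1.05 ± 0.17), IFIT2 (-1.02 ± 0.23) and IFIT3 (-0.97 ± 0.19) passed too. The interferon count was the least stable of the large lists, with 5 calls without the mock control library, 1 without the mock sorafenib library and 0 without any of the other 3 single-drug libraries. In class I antigen presentation, PSMB9 (-1.45 ± 0.25), ERAP2 (-0.86 ± 0.16) and TAP1 (-0.60 ± 0.11) were higher with sorafenib and HLA-B (0.70 ± 0.12) was higher with dipyridamole, among 17 genes. The 3 calls for sorafenib became 2 without the mock control library, 1 without the SLC29A2 sorafenib library and 0 without any of the other 3 single-drug libraries, and HLA-B lost its call in 4 of the 8 fits with 1 library left out. HLA-B shares reads with near-identical class I genes, so its level is uncertain.

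Of 31 p53 targets, 8 passed as higher with sorafenib and 0 as higher with dipyridamole (median -0.24). DDB2, a DNA damage recognition gene, was at 30.2 and 19.5 against 67.1 and 55.3 FPKM (-1.29 ± 0.15; limma adjusted p = 0.00417). The death receptor gene FAS was at 26.1 and 15.3 against 48.5 and 56.8 FPKM (-1.35 ± 0.31), and FDXR (-1.08 ± 0.18), PLK2 (-0.94 ± 0.13) and SESN1 (-0.91 ± 0.19) passed as well. The p53 calls numbered 2 without the mock dipyridamole or the SLC29A2 sorafenib library, 1 without the mock sorafenib library and 0 without the SLC29A2 dipyridamole library. None of 12 measured BCL2 family genes passed by limma in either direction.

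**Figure D3:**
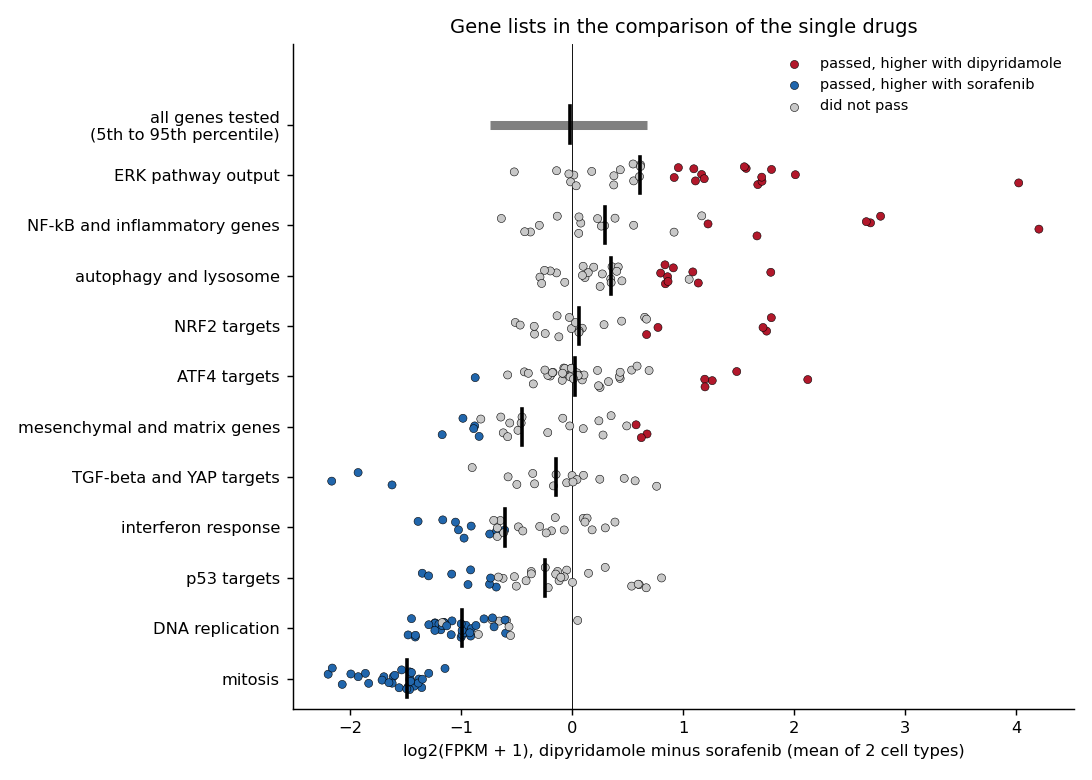
Log2 difference between dipyridamole and sorafenib, averaged over both cell types, for each measured gene of 11 lists, with a black bar at the list's median; the grey bar spans the 5th to 95th percentile of all genes tested, -0.74 to 0.68. All 31 mitosis genes lie at or below -1.1, while the ERK, NF-kB and autophagy lists extend to the right.

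Among the targets of the drugs themselves, 2 of 9 measured sorafenib-target kinases passed, both higher with sorafenib. Of all genes tested, 8.98% passed in either direction. KIT, a receptor tyrosine kinase that sorafenib inhibits, was at 1.17 and 0.721 FPKM with dipyridamole against 5.57 and 7.55 FPKM with sorafenib (-1.96 ± 0.25; limma adjusted p = 0.00563, and 0.0743 without the SLC29A2 dipyridamole library). The control libraries held 4.29 and 5.15 FPKM of KIT, so the dipyridamole libraries were below both the control and the sorafenib libraries. MAPK14, which encodes p38-alpha, had a difference of -0.47 ± 0.11 that lost its call in every fit with 1 library left out. The other 7 measured kinases did not pass, among them BRAF, at 9.75 and 7.35 against 8.14 and 7.73 FPKM, and FGFR1 (0.23 ± 0.14). FLT3 was listed at 0 in all 8 libraries, and KDR and FLT1 stayed at or under 0.0902 FPKM.

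Of 11 measured phosphodiesterase genes, PDE2A was higher with dipyridamole and PDE1C higher with sorafenib. PDE2A, which hydrolyses both cyclic nucleotides, was at 10.4 and 9.09 against 3.70 and 4.14 FPKM (1.13 ± 0.19; limma adjusted p = 0.0169). PDE1C, a calmodulin-dependent enzyme and the most abundant of those named, was at 67.3 and 58.9 against 101 and 90.7 FPKM (-0.59 ± 0.11; limma adjusted p = 0.0235). PDE5A, the cyclic GMP enzyme that dipyridamole is known to inhibit, was at 2.47 and 1.82 against 4.36 and 3.84 FPKM (-0.70 ± 0.21) and did not pass, nor did PDE3B (-0.66 ± 0.19). PDE2A lost its call in 3 and PDE1C in 6 of the 8 fits with 1 library left out. Of 14 cyclic AMP and CREB targets 3 passed, all higher with dipyridamole: AREG (1.19 ± 0.28), DUSP1 (1.10 ± 0.15) and NR4A1 (0.90 ± 0.21); AREG is also an ERK output. These 3 calls became 2 without either control library or the mock dipyridamole library, 1 without the mock sorafenib library and 0 without either SLC29A2 single-drug library.

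In the nucleoside transport and adenosine list, 1 of 15 genes passed. ADORA1, the A1 adenosine receptor gene, was at 1.77 and 1.53 FPKM with dipyridamole, at 7.60 and 7.92 with sorafenib and at 8.60 and 8.61 with the control treatment (-1.73 ± 0.16; limma adjusted p = 0.00258). ADORA1 passed in every fit with 1 library left out. The thymidine kinase gene TK1, which salvages thymidine and cycles with S phase, was at 65.7 and 98 against 199 and 166 FPKM (-1.17 ± 0.34; limma adjusted p = 0.0838) and did not pass. SLC29A2 had a difference of -0.24 ± 0.25, from 2054 against 3040 FPKM in the SLC29A2 cells and 7.59 against 7.11 FPKM in mock cells. ADORA2B (0.63 ± 0.18), TK2 (-0.57 ± 0.23) and DCK (-0.51 ± 0.19) did not pass.

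Some metabolic genes passed, where 8.98% of all genes tested did so in either direction. Dipyridamole is known to hinder the processing of SREBP, the factor that turns on sterol synthesis. Whether dipyridamole did so here was not tested. Against the control treatment, which both values share, the cholesterol list had a median of -0.42 with sorafenib and -0.41 with dipyridamole in mock cells. In SLC29A2 cells the medians were -0.35 with sorafenib and -0.36 with dipyridamole. Between the drugs, of 26 cholesterol genes INSIG1 (1.12 ± 0.22) and LSS (0.52 ± 0.13) passed as higher with dipyridamole and ACAT2 (-0.87 ± 0.21) as higher with sorafenib. INSIG1, an SREBP target and brake, was at 39.7 and 31.2 against 25.1 and 9.56 FPKM, below its control levels of 68.4 and 40.7 FPKM with either drug. Of 18 fatty acid genes ACACB (-0.73 ± 0.15) and SCD5 (-0.64 ± 0.12) were higher with sorafenib. Of 27 hypoxia and glycolysis genes, SLC2A3 (1.40 ± 0.14; limma adjusted p = 0.00299), a high-affinity glucose transporter gene, HK1 (0.69 ± 0.16), HK2 (0.68 ± 0.12) and VEGFA were higher with dipyridamole. Without any one of the 4 single-drug libraries 1 hypoxia call was left, and SLC2A3 passed in each such fit. The fatty acid calls became 0 in each of these fits. The 2 cholesterol calls for dipyridamole became 1 without any one of the mock sorafenib library, the control libraries and the libraries with both drugs, and 0 without any of the other 3 single-drug libraries.

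Over 13 transcripts of the mitochondrial genome the median log2 difference was 0.94 in mock cells and 0.02 in SLC29A2 cells, and of these MT-ATP8 passed (1.30 ± 0.31; limma adjusted p = 0.0472) and was not called without the mock dipyridamole library. MT-CO1 was at 18077 FPKM in the mock dipyridamole library, against 9429 in the mock sorafenib library and 13760 and 9638 in the SLC29A2 libraries. The mock dipyridamole library is the one with 5.74% mitochondrial reads, and its part in these medians was not tested. None of the 13 passed the interaction of cell type (limma adjusted p of at least 0.109). MT-ATP8 also lost its call without the mock sorafenib or the SLC29A2 dipyridamole library, and without either library with both drugs. None of 35 nuclear respiratory chain genes (median -0.13), 44 cytosolic ribosomal protein genes (median 0.10) and 10 drug transporters (median 0.00) passed by limma.

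The position of the control treatment was read beside the single drugs as a description, since both share the control libraries. For the 461 genes higher with dipyridamole, the median difference from the control was -0.03 with sorafenib and 0.88 with dipyridamole in mock cells, and -0.02 and 0.88 in SLC29A2 cells. For the 772 genes higher with sorafenib it was -0.03 with sorafenib and -0.83 with dipyridamole in mock cells, and -0.00 and -0.93 in SLC29A2 cells. The medians with dipyridamole thus lay away from the control and those with sorafenib near it, for genes chosen by the difference between the drugs. The ERK list did otherwise: its median was -0.55 with sorafenib and 0.22 with dipyridamole in mock cells, and -0.45 and 0.45 in SLC29A2 cells. With both drugs the ERK list was at -0.45 and -0.60, near sorafenib, and the mitosis list at -1.91 and -1.47, near the -1.95 and -1.68 of dipyridamole and away from the -0.26 and -0.16 of sorafenib.

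**Figure D4:**
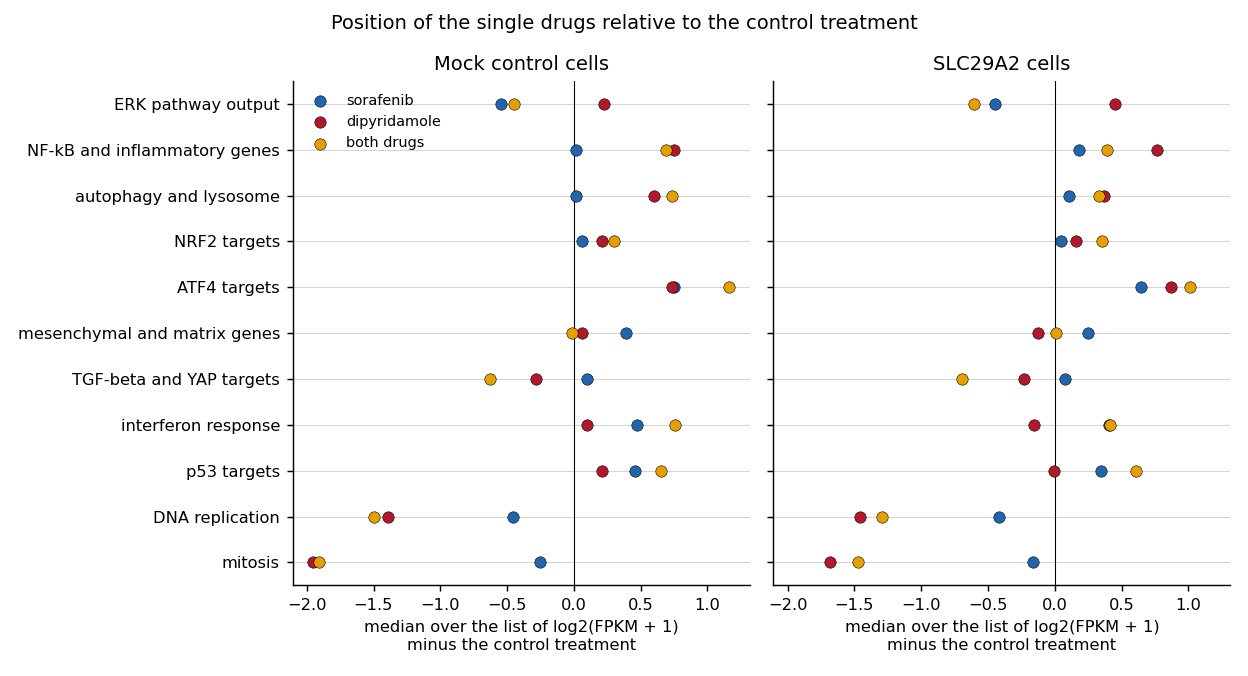
Median over each list of log2(FPKM + 1) minus the control library of the same cell type, for sorafenib, dipyridamole and both drugs in mock control cells (left) and SLC29A2 cells (right), with 1 library per point. The mitosis and DNA replication lists have dipyridamole and both drugs at the far left, and the ERK list has sorafenib and both drugs left of 0 and dipyridamole right of it.

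Whether the difference between the drugs depended on SLC29A2 was tested with an interaction of cell type, which left 1 residual degree of freedom. No gene passed by limma (0 of 13726, 0%), with 2947 at an unadjusted p under 0.05. The smallest p-values with a more positive difference in SLC29A2 cells belonged to TUBB4A, KRT33B and MIR3181, and those with a more negative one to LARP4B-DT, RNU6-850P and BRCA1P1 (adjusted p 0.0588 to 0.0732). The keratin gene KRT33B was at 12.6 FPKM with dipyridamole and 7.78 with sorafenib in mock cells, and at 43.8 and 4.38 FPKM in SLC29A2 cells. The tubulin gene TUBB4A was at 20.4 and 40.8 FPKM in mock cells and at 50.4 and 26.2 FPKM in SLC29A2 cells, so the drugs stood in opposite order. LARP4B-DT, a divergent transcript whose reads cannot be told apart by strand, was at 41.0 and 0.945 FPKM in mock cells and at 7.59 and 5.94 FPKM in SLC29A2 cells; MIR3181, RNU6-850P and BRCA1P1 rested on at most 22 reads. With median-ratio size factors 821 genes passed, 590 more positive in SLC29A2 cells and 231 more negative, while the median interaction over all genes moved from -0.09 to 0.05. With a filter at 5 FPKM 38 passed. The count thus depends on the scaling of the mock and SLC29A2 libraries.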

How the data were processed

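Messenger RNA of SK-Hep1 cells was sequenced in 8 libraries, 1 for each of 8 conditions, after poly(A) selection, per the labels. The values deposited are FPKM, made by the authors and given as a table for each library. The submitters' processing notes list, with no roles, edgeR, HTSeq 0.6.1 and TopHat2 2.0, and the build GRCh38.p12. Strand is not given in the sources used here. Each table had 58310 lines, 8 of them without a gene, and GENCODE 29 named 58039 genes. FPKM times mean transcript length fell on whole multiples of 1 read for 93.6% of values (tolerance 0.01), which gave reads for 94.3% of expressed genes and totals of 14.1 to 16.7 M; depth limits cover counting error only.

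The difference was fitted with limma 3.58.1 in R 4.3.3 (trended, moderated variances, two-sided, Benjamini-Hochberg over 13726 genes, threshold 0.05) on log2(FPKM + 1), which understates changes of low genes. The model held 4 treatments and cell type over 8 libraries, with 3 residual degrees of freedom. Cell types are not replicates, yet with 1 library per condition their disagreement over the treatments is the only residual error. An interaction model tested the difference between cell types. Named were the 15 largest differences on either side, from called genes of 1 sign in both cell types and at least 5 FPKM in both libraries of the higher drug, up to 5 members of each of 36 lists, and SLC29A2, phosphodiesterases and sorafenib-target kinases. Of 873 list entries 872 matched a gene. Some list members are counted but not reported here by name. Members and lists were chosen with earlier results of these data known. Overlapping genes cannot be told apart. Python 3.11.15 and matplotlib 3.10.9 made tables and figures.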

Additional observations from a re-analysis of the deposited data

How the results depend on the processing

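The comparison of the single drugs called 1233 genes, and between 1181 and 1313 at pseudocounts of 0.1 and 0.5, a filter at 5 FPKM, size factors, robust variances, voom on recovered reads and with no replicate block for the pairing by cell type (1313). With the 4 single-drug libraries alone 1004 genes passed, and 839 in an additive model of both drugs. Without a filter on low values the count was 554. It was 3522 with a term for cell type by dipyridamole, and 5846 without both dipyridamole-treated mock libraries, an alternative chosen after seeing the data that leaves 1 residual degree of freedom; the cause was not tested. With 1 library left out the count ran from 131 to 1152. For the difference between cell types it was 38 at 5 FPKM and 821 with size factors, and 0 at a pseudocount of 0.1 and with robust variances.

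With 1 library left out, calls for dipyridamole ran from 5 to 14 for ERK output, 2 to 5 for angiogenic factors, 1 to 5 for ATF4 targets, 1 to 5 for NRF2 targets, 1 to 7 for NF-kB genes and 1 to 9 for autophagy. Calls for sorafenib ran from 0 to 8 for p53 targets, 2 to 34 for DNA replication, 16 to 31 for mitosis, 1 to 7 for purine and pyrimidine synthesis, 0 to 7 for the interferon response and 0 to 4 for matrix genes. Without both dipyridamole-treated mock libraries they were 8 for angiogenic factors, 14 for ATF4, 8 for NRF2, 18 for p53, 17 for purine and pyrimidine synthesis, 17 for interferon, 14 for NF-kB, 13 for matrix and 14 for autophagy.

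Of the 30 genes with the largest differences, 19 passed under each alternative that tested them and 0 changed direction (ANKRD2, BMP6, KIT and MIR9-3 were not in the fit at 5 FPKM); 11 lost the call with at least 1 library left out, and 4 (CXCL2, LINC-PINT, PDE7B-AS1 and MIR9-3) without the filter, MIR9-3 also with a pseudocount of 0.1 and voom. With 1 library per condition, differences of genes with few reads are the least certain.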

Other observations

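Some cell-surface and structural genes added to the sorafenib side, though the lists that hold them went both ways. The simple-epithelium keratin genes KRT18, at 182 and 204 FPKM with dipyridamole (mock and SLC29A2 cells) against 518 and 491 FPKM with sorafenib (-1.38 ± 0.15; limma adjusted p = 0.00388), and KRT8, at 537 and 719 against 1648 and 1497 FPKM (-1.34 ± 0.25), were both highest in the control libraries, at 810 and 699 FPKM for KRT18 and 1903 and 1645 FPKM for KRT8. KRT18 passed in every fit with 1 library left out and KRT8 lost its call in 4 of 8. KRT7 (-1.09 ± 0.19) was higher with sorafenib as well. The keratin gene KRT19 (0.71) lay the other way and did not pass. The tight junction gene CLDN1 was higher with dipyridamole, at 50.7 and 57.4 against 27.6 and 29.4 FPKM (0.90 ± 0.15). The median over the epithelial list was 0.11. The epithelial list had 1 call for dipyridamole and 3 for sorafenib among 9 measured genes, and the 3 became 1 without any one single-drug library. The 7 measured endothelial markers went both ways, with a list median of -0.07. TIE1 (0.98), ROBO4 (0.50) and ENG (0.07) lay on the dipyridamole side without passing. MCAM, an adhesion receptor gene, was higher with sorafenib, at 5.58 and 6.03 against 18.4 and 15.5 FPKM (-1.40 ± 0.16). So was CD34, a sialomucin gene, at 0.449 and 0.678 against 2.43 and 3.11 FPKM (-1.27 ± 0.23). These 2 calls became 1 without any of the other 3 single-drug libraries and 0 without the SLC29A2 dipyridamole library.

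Of 3 caveolar coat genes beyond CAVIN2, chosen after their values were seen, CAV1 passed. CAV1, the main caveolin gene, was at 131 and 107 FPKM with dipyridamole, 347 and 321 with sorafenib and 389 and 369 with the control treatment (-1.49 ± 0.13; limma adjusted p = 0.00239). CAVIN1 was at 229 and 321 FPKM with dipyridamole against 619 and 482 with sorafenib and did not pass, and CAV2, at 70.5 and 73.3 against 108 and 89.6 FPKM, did not pass either.

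Genes that are not protein coding made up 68 of the 461 genes higher with dipyridamole (14.8%), 17 of the 772 higher with sorafenib (2.20%) and 15.8% of all genes tested. KCP, a secreted BMP modulator gene chosen after its values were seen, was at 8.30 and 5.73 FPKM with dipyridamole and at 2.74 and 2.95 FPKM with sorafenib, against 130 and 98.4 FPKM with both drugs. The heat shock genes HSPA1A, at 36.9 and 48.2 FPKM with dipyridamole and 28.0 and 37.0 with sorafenib, also lay higher with both drugs, at 111 and 122 FPKM.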
